A study of Mus musculus with 24 samples.

Results

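The BCL2 family of survival and death genes was followed through 4 states of mouse CD4 T cells. Members were found by gene symbol in the count tables, which gave all 10 genes sought among 23420 genes: the guardians Bcl2, Bcl2l1 (BCL-XL) and Mcl1, the pore formers Bax and Bak1, and the BH3-only genes Bcl2l11 (BIM), Bbc3 (PUMA), Pmaip1 (NOXA), Bid and Bad. All 10 passed the filter on low counts, as did 12584 genes in all.

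BCL2 family proteins set whether the outer mitochondrial membrane stays closed. Guardians bind and hold their relatives, BH3-only proteins occupy the guardians or act on the pore formers, and freed Bax and Bak1 open the membrane, which lets cytochrome c out to start the caspases. In T cells, Bcl2 and Mcl1 are known for keeping naive cells alive, Bcl2l1 for its induction by receptor and costimulatory signals, and Bcl2l11 and Bbc3 for the death of cells after a response.

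RNA was sequenced from sorted CD4 T cells in 4 groups of 6 libraries. Reactivated TH1 cells had been differentiated for 5 days and then kept for 6 hours with macrophages that carried antigen. TH1 effector cells had gone through the same 5 days of differentiation. Activated naive cells had received 6 hours of stimulation, by a stimulus that the labels do not name, and naive cells came from spleens. All groups carried the genotype OT2Nur77GFP+/-, from a cross of the Nr4a1-EGFP/cre line 820Khog, on C57BL/6, with B6.Cg-Tg(TcraTcrb)425Cbn/J, so that the cells share an ovalbumin-specific receptor and a reporter driven by the Nr4a1 (Nur77) promoter. The labels give neither age nor sex, and the titles number the libraries of each group from 1 to 6 after the letter M, without saying what the letter stands for. Libraries with the same number in the 4 groups may share a source, and whether those of 1 group came from different mice is not said. P-values therefore measure the spread between these libraries, which may be technical. No TH1 group met macrophages without antigen, so the effects of antigen and of macrophages cannot be told apart. No group was labelled as kept for 6 hours without stimulation. Effects of those 6 hours therefore cannot be told apart from effects of stimulation or reactivation. In bulk RNA, fewer cells of a kind and less RNA per cell cannot be told apart either.

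Depth ranged from 18457653 to 34262645 counts assigned to genes per library. The labels do not state sequencing runs. By flow cell the libraries fell into 2 runs, with 3 libraries of each group in each run. All 8 CD4 T cell markers were present in all groups, at a summed 3090 to 3620 CPM in reactivated TH1, 3025 to 3467 in TH1 effector, 4102 to 5034 in activated naive and 3970 to 4325 CPM in naive libraries. CPM are counts scaled to library size, with TMM factors. The 5 TH1 markers summed to at least 10491 CPM in reactivated TH1 and 1860 CPM in TH1 effector libraries, against at most 111 CPM in activated naive and 1.18 CPM in naive libraries. The 4 stimulation markers (Nr4a1, Cd69, Il2ra and Egr2) summed to 2222 to 3930 CPM in reactivated TH1 and 3909 to 4907 CPM in TH1 effector libraries, and to 10893 to 17277 CPM in activated naive and 325 to 932 CPM in naive libraries. The sum was thus higher in all activated naive than in naive libraries, but lower in most reactivated TH1 than in TH1 effector libraries. Il2ra made up most of the TH1 sums, at a mean of 1676 ± 201 CPM in reactivated TH1 and 3983 ± 308 CPM in TH1 effector libraries (SD, n = 6 each). Egr2, in contrast, averaged 354 ± 50.9 CPM in reactivated TH1 and 4.70 ± 1.84 CPM in TH1 effector libraries, Nr4a1 790.0 ± 639 and 298 ± 160.1 CPM, and Cd69 136 ± 41.9 and 95.8 ± 15.5 CPM. Against TH1 effector cells, Il2ra was lower (log2 −1.25, edgeR adjusted p = 2.58e-15), while Egr2 (6.21, adjusted p = 5.66e-17), Nr4a1 (1.47, 0.00941) and Cd69 (0.48, 0.00519) were higher. The 12 macrophage markers summed to 11.9 to 17.6 CPM in reactivated TH1, 3.32 to 4.67 in TH1 effector, 9.30 to 11.8 in activated naive and 7.49 to 10.9 CPM in naive libraries. Of them, 11 had counts in reactivated TH1 libraries (Marco was at 0) and 5 in TH1 effector libraries, where Emr1, Csf1r, Fcgr1, Marco, C1qa, C1qb and C1qc were at 0. The 5 dendritic cell markers summed to 7.09 to 10.6 CPM in reactivated TH1 libraries, against at most 3.56 CPM in the other groups. The 6 B cell markers summed to 2.70 to 27.6 CPM in TH1 effector libraries, against at most 3.81 CPM in the others. The 4 CD8 and NK cell markers summed to 4.81 to 5.71 CPM in reactivated TH1, 4.21 to 6.42 in TH1 effector, 4.66 to 7.55 in activated naive and 23.2 to 30.8 CPM in naive libraries. The 3 neutrophil markers summed to at most 2.24 CPM in any library. Reads without a feature came to 13.2% to 18.1% of all reads in the tables in reactivated TH1, 14.8% to 19.2% in TH1 effector, 20.7% to 24.5% in activated naive and 21.6% to 24.5% in naive libraries, so that both TH1 groups lay below both groups of naive origin. The part of these in the results was not tested.

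The feature that makes these genes a family can be read in their coding sequences. The BH3 region, a short helix through which members hold each other, is marked by a leucine codon, 3 codons of any kind, a codon for glycine, alanine or serine, and an aspartate codon. A stretch of 33 bases that begins 2 codons before the leucine is printed for 9 members, 5′ to 3′ on the coding strand, with the leucine and aspartate codons in capitals. Sequences were read from GENCODE M21 transcripts on GRCm38 (mm10), where each stretch lies in 1 exon.
Bcl2: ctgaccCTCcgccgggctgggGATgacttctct
Bcl2l1: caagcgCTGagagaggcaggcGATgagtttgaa
Mcl1: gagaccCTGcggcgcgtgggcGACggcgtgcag
Bax: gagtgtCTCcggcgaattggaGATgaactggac
Bak1: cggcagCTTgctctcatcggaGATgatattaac
Bcl2l11: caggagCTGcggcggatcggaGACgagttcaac
Bbc3: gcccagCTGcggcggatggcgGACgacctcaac
Bid: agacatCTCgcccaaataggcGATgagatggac
Bad: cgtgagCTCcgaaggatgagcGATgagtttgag
The pattern occurred once in each of these 9 coding sequences and 2 times in Pmaip1, whose sequence is not printed. It is not specific by itself, since 5371 of 17121 coding sequences, or 31.4%, held it at least once.

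Each guardian peaked in another state. Bcl2 was high in TH1 effector libraries and low in the other groups. Bcl2l1 rose with each stimulation and was highest in reactivated TH1 libraries, and Mcl1 was highest in naive libraries.

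Bcl2, the founding guardian, lies on the minus strand of chromosome 1 (106538178 to 106714274, mm10). Bcl2 ranged from 107 to 185 CPM in reactivated TH1 libraries (median 140.4), against 835 to 1086 CPM in TH1 effector libraries (median 985). In the other pair it ranged from 139 to 198 CPM in activated naive libraries (median 169), against 110 to 154 CPM in naive libraries (median 123). The 6 TH1 effector libraries lay above all 18 others. On reactivation Bcl2 fell 6.97-fold (log2 fold change −2.80, SE 0.10, edgeR adjusted p = 2.90e-18), with −2.99 in the first run alone and −2.64 in the second. TH1 effector cells held 7.53-fold more Bcl2 than naive cells (log2 2.91, SE 0.10, adjusted p = 6.44e-19). Stimulation of naive cells raised it 1.29-fold (log2 0.37, SE 0.10, adjusted p = 0.00105), with overlapping libraries. That call was lost in the first run alone (log2 0.17, adjusted p = 0.135) and with scaling by library size only (log2 0.20, adjusted p = 0.0703). Reactivated TH1 and naive libraries did not differ past the threshold (log2 0.11, SE 0.10, adjusted p = 0.270), with values of opposite sign in the runs, −0.19 and 0.44 (adjusted p = 0.0906 and 0.00141). Without naive replicate 3 this difference passed (log2 0.20, adjusted p = 0.0314). Of the exons of Bcl2, 6.09% overlap an antisense gene, D630008O14Rik, and the strand setting of the counting is not given in the sources used here.

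Bcl2l1 encodes BCL-XL, the guardian that activated T cells make (chromosome 2, 152780668 to 152831728, minus strand). Its range was 259 to 337 CPM in reactivated TH1 libraries (median 282), against 89.2 to 136 CPM in TH1 effector libraries (median 100.3). Activated naive libraries held 54.1 to 105 CPM of Bcl2l1 (median 66.3), against 14.3 to 33.4 CPM in naive libraries (median 16.3). The groups stood in the order reactivated TH1, TH1 effector, activated naive and naive, with overlap only between TH1 effector and activated naive libraries. Naive replicate 2, at 33.4 CPM, was well above the other naive libraries, which reached 20.3 CPM. Reactivation raised Bcl2l1 2.77-fold (log2 1.47, SE 0.16, adjusted p = 4.64e-09), and stimulation of naive cells raised it 3.78-fold (log2 1.92, SE 0.16, adjusted p = 7.90e-11). TH1 effector cells held 5.51-fold more than naive cells (log2 2.46, SE 0.16, adjusted p = 1.12e-12) and 1.46-fold more than activated naive cells (log2 0.54, SE 0.16, adjusted p = 0.00163), the last not past the threshold in the first run alone (adjusted p = 0.0943). Reactivated TH1 libraries were 15.3-fold above naive ones (log2 3.93, SE 0.16, adjusted p = 2.42e-16).

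Mcl1, a guardian whose protein turns over quickly, lies on the plus strand of chromosome 3 (95658788 to 95663176). Mcl1 had 318 to 367 CPM in reactivated TH1 libraries (median 343), against 281 to 357 CPM in TH1 effector libraries (median 325). Stimulated naive cells held 456 to 528 CPM of it (median 498), against 672 to 816 CPM in naive libraries (median 722). Naive libraries were all above activated naive ones, which were all above both TH1 groups. Mcl1 fell 1.50-fold on stimulation of naive cells (log2 −0.58, SE 0.04, adjusted p = 1.77e-11) and was 2.28-fold lower in TH1 effector than in naive cells (log2 −1.19, SE 0.04, adjusted p = 1.11e-17). It was also 2.15-fold lower in reactivated TH1 than in naive cells (log2 −1.10, SE 0.04, adjusted p = 2.38e-17). Reactivated TH1 and TH1 effector libraries overlapped and did not differ past the threshold (log2 0.08, SE 0.04, adjusted p = 0.105), but did without reactivated TH1 replicate 4 (log2 0.12, adjusted p = 0.0267).

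**Figure D1:**
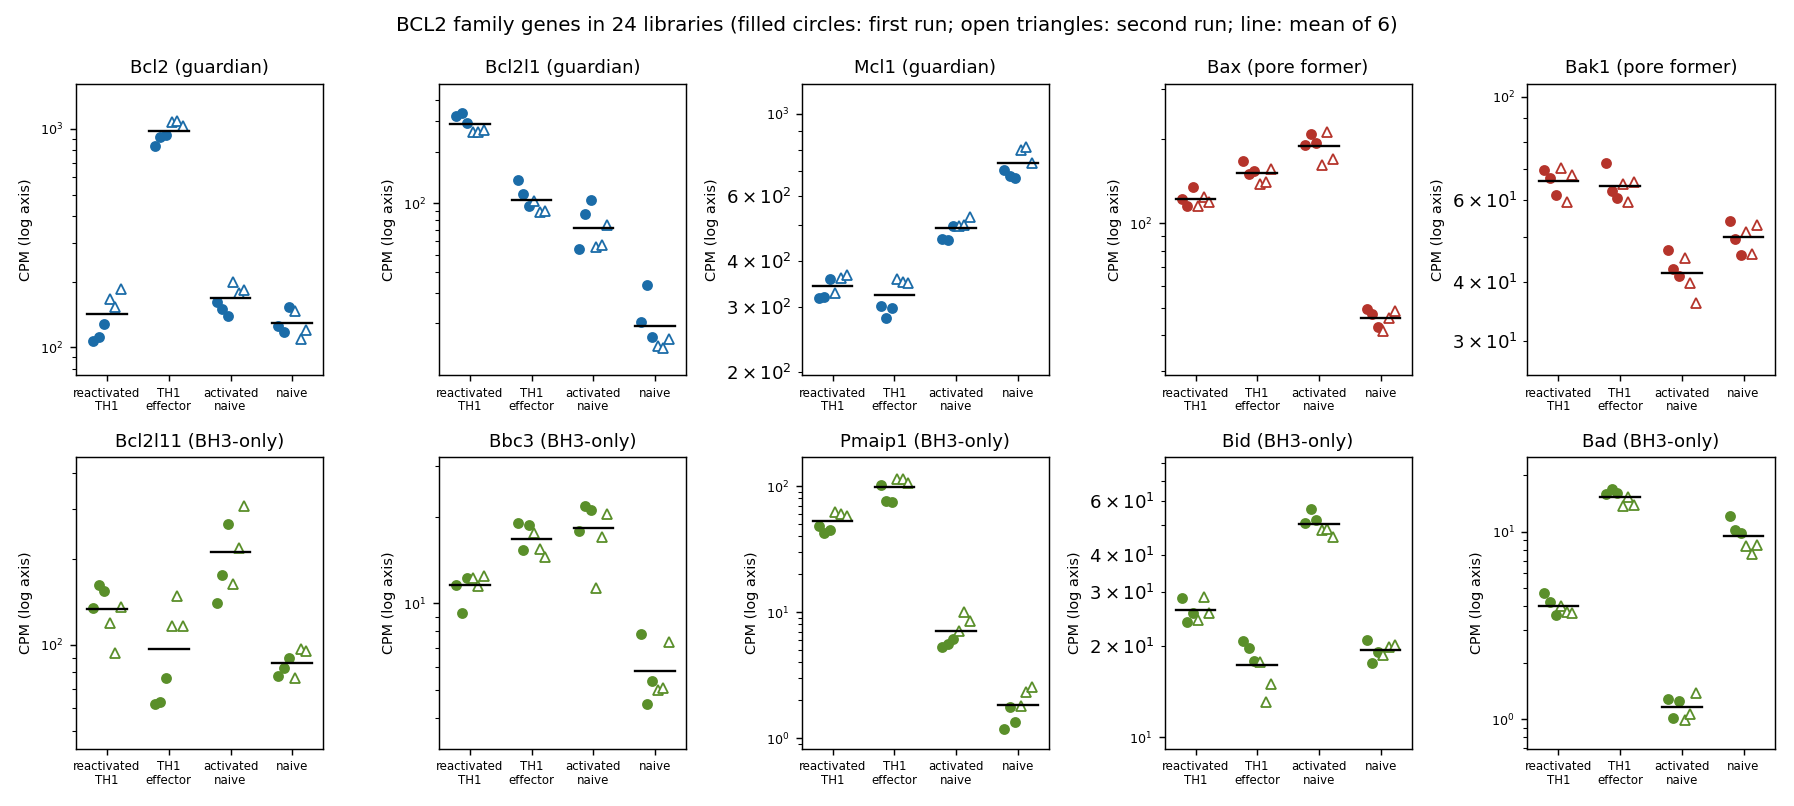
Level of each gene in CPM (log axis) in each of 24 libraries, by group; points are libraries, filled circles the first run, open triangles the second, and lines the mean of 6. Bcl2 is at 835 CPM or more in TH1 effector libraries only, Pmaip1 spans 1.18 to 114 CPM, and Bcl2l11 splits by run within TH1 effector libraries.

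Among the pore formers, the level of Bax spanned a wider range than that of Bak1. Bax, which moves from the cytosol to mitochondria to form pores, lies on the minus strand of chromosome 7 (45461697 to 45466898). Bax ranged from 115 to 135 CPM in reactivated TH1 libraries (median 121), against 138 to 166.1 CPM in TH1 effector libraries (median 152). It ranged from 161.7 to 212 CPM in activated naive libraries (median 192), against 41.4 to 49.5 CPM in naive libraries (median 47.0). Naive libraries lay apart, below all others. Stimulation raised Bax 4.10-fold in naive cells (log2 2.03, SE 0.06, adjusted p = 3.29e-20), and TH1 effector cells held 3.26-fold more than naive cells (log2 1.71, SE 0.06, adjusted p = 1.87e-18). On reactivation of TH1 cells Bax fell 1.24-fold (log2 −0.31, SE 0.06, adjusted p = 7.19e-05), without overlap of the libraries, with log2 values of −0.37 within the first run and −0.25 within the second. Gm45808, a protein-coding annotation on the same strand, covers 12.2% of Bax exons.

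Bak1, the pore former that sits in the mitochondrial membrane, lies on the minus strand of chromosome 17 (27019810 to 27029009). It had 59.4 to 70.4 CPM in reactivated TH1 libraries (median 67.4), against 59.5 to 72.0 CPM in TH1 effector libraries (median 63.9). The range was 36.2 to 46.8 CPM in activated naive libraries (median 41.9), against 45.7 to 54.1 CPM in naive libraries (median 50.4). Both TH1 groups lay above both groups of naive origin, and no pair of groups differed by more than the 1.57-fold between reactivated TH1 and activated naive cells. Bak1 fell 1.19-fold on stimulation of naive cells (log2 −0.25, SE 0.06, adjusted p = 0.00110, and 0.0530 in the first run alone) and was 1.29-fold higher in TH1 effector than in naive cells (log2 0.36, SE 0.06, adjusted p = 1.30e-05). Reactivation gave no difference past the threshold (log2 0.04, SE 0.06, adjusted p = 0.605). Ggnbp1 on the other strand covers 18.2% of Bak1 exons with its longer overlap, and averaged 0.839, 2.01, 0.839 and 2.13 CPM in reactivated TH1, TH1 effector, activated naive and naive libraries.

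Among the 5 BH3-only genes, Pmaip1 was lowest in naive cells and highest in TH1 effector cells, and Bad fell with both stimulations. Bcl2l11, Bid and Bbc3 had their highest mean in activated naive cells, although Bbc3 did not differ there from TH1 effector cells past the threshold.

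Pmaip1 encodes NOXA, a BH3-only protein that binds Mcl1 preferentially (chromosome 18, 66458533 to 66465565). It had 42.2 to 61.8 CPM in reactivated TH1 libraries (median 53.2), against 75.2 to 114 CPM in TH1 effector libraries (median 104). Values were 5.27 to 10.1 CPM in activated naive libraries (median 6.58), against 1.18 to 2.54 CPM in naive libraries (median 1.78), where a library held 32 to 54 counts. None of the 4 groups overlapped another. Pmaip1 was 54.2-fold higher in TH1 effector than in naive cells (log2 5.76, SE 0.11, adjusted p = 1.82e-23), the largest change of a member. Stimulation raised it 3.88-fold in naive cells (log2 1.96, SE 0.11, adjusted p = 1.83e-14). In TH1 cells it fell 1.87-fold on reactivation (log2 −0.90, SE 0.11, adjusted p = 5.53e-10). Second-run libraries held more Pmaip1 in every group, with first-run and second-run means of 45.0 and 59.9 CPM in reactivated TH1, 84.8 and 111 in TH1 effector, 5.66 and 8.55 in activated naive, and 1.44 and 2.21 CPM in naive libraries. Within the runs the change on reactivation was −0.95 and −0.87.

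Bbc3 encodes PUMA, a BH3-only protein that binds all guardians (chromosome 7, 16308393 to 16318205). Bbc3 had 9.30 to 12.4 CPM in reactivated TH1 libraries (median 11.9), against 14.5 to 19.0 CPM in TH1 effector libraries (median 16.6). Activated naive libraries held 11.3 to 21.7 CPM (median 19.1), against 4.48 to 7.82 CPM in naive libraries (median 5.23). Naive libraries were below all others. Bbc3 rose 3.11-fold on stimulation of naive cells (log2 1.64, SE 0.15, adjusted p = 9.51e-11) and was 2.87-fold higher in TH1 effector than in naive cells (log2 1.52, SE 0.15, adjusted p = 4.13e-10). On reactivation it fell 1.45-fold (log2 −0.54, SE 0.15, adjusted p = 0.00108). Within the first run its log2 change was −0.71 (adjusted p = 0.00231), and within the second −0.38, where the call was lost (adjusted p = 0.0970). TH1 effector and activated naive libraries did not differ past the threshold (log2 −0.12, SE 0.15, adjusted p = 0.427).

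Bcl2l11 encodes BIM, a BH3-only protein known for the deletion of T cells (chromosome 2, 128126038 to 128162547). It ranged from 93.9 to 162.3 CPM in reactivated TH1 libraries (median 135), against 61.8 to 148 CPM in TH1 effector libraries (median 96.3). Its range was 140 to 306 CPM in activated naive libraries (median 197), against 76.5 to 96.7 CPM in naive libraries (median 86.6). Activated naive libraries lay above all naive ones. Bcl2l11 rose 2.43-fold on stimulation of naive cells (log2 1.28, SE 0.21, adjusted p = 7.25e-06), by 1.20 and 1.38 in the runs. In TH1 cells the runs disagreed. TH1 effector libraries held 61.8 to 76.6 CPM in the first run and 116 to 148 CPM in the second, while reactivated TH1 libraries averaged 150.4 and 116 CPM. The change on reactivation was 1.42-fold over both runs (log2 0.51, SE 0.21, adjusted p = 0.0300), but 1.13 on the log2 scale in the first run (adjusted p = 0.000322) and −0.11 within the second (adjusted p = 0.673). It was also lost with library size only (adjusted p = 0.0948), with upper-quartile factors (0.101), without reactivated TH1 replicate 2 or 3 (0.0703 and 0.0631), and without TH1 effector replicate 1, 2 or 3 (0.0858, 0.0805 and 0.0660). TH1 effector and naive cells did not differ past the threshold (log2 0.13, SE 0.21, adjusted p = 0.553).

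Bid encodes the BH3-only protein that links death receptors to mitochondria once caspase 8 has cut it (chromosome 6, 120891930 to 120916853, minus strand). It ranged from 23.9 to 29.0 CPM in reactivated TH1 libraries (median 25.6), against 13.1 to 20.8 CPM in TH1 effector libraries (median 17.8). In cells of naive origin the range was 45.7 to 56.5 CPM in activated naive libraries (median 49.7), against 17.6 to 20.9 CPM in naive libraries (median 19.5). Activated naive libraries stood above all others, and reactivated TH1 libraries above those of TH1 effector and naive cells. Bid rose 2.59-fold on stimulation of naive cells (log2 1.37, SE 0.08, adjusted p = 3.01e-14) and 1.51-fold on reactivation of TH1 cells (log2 0.60, SE 0.08, adjusted p = 3.32e-07; 0.39 and 0.81 within the runs). TH1 effector and naive cells did not differ past the threshold (log2 −0.17, SE 0.08, adjusted p = 0.0664), with 0.05 and −0.37 within the runs (adjusted p = 0.685 and 0.0102). This difference passed with library size only (adjusted p = 0.0376), with no filter on low counts (0.0312), without naive replicate 2 (0.0266), and without TH1 effector replicate 1, 2 or 4 (0.0225, 0.0199 and 0.0297). Bcl2l13 on the other strand covers 17.7% of Bid exons, and averaged 74.2, 69.3, 76.4 and 79.4 CPM in reactivated TH1, TH1 effector, activated naive and naive libraries.

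Bad encodes a BH3-only protein that growth factor kinases keep inactive (chromosome 19, 6941861 to 6951899). It had 3.60 to 4.71 CPM in reactivated TH1 libraries (median 3.86), against 13.6 to 16.8 CPM in TH1 effector libraries (median 15.5). It had 0.995 to 1.37 CPM in activated naive libraries (median 1.15, from 23 to 38 counts a library), against 7.59 to 12.1 CPM in naive libraries (median 9.18). The 4 groups did not overlap. Bad fell 8.14-fold on stimulation of naive cells (log2 −3.02, SE 0.09, adjusted p = 6.50e-19) and 3.81-fold on reactivation of TH1 cells (log2 −1.93, SE 0.09, adjusted p = 1.20e-15). TH1 effector cells held 1.62-fold more than naive cells (log2 0.69, SE 0.09, adjusted p = 1.18e-07). Gpr137 on the other strand covers 20.5% of Bad exons and changed in the same direction as Bad in these 3 comparisons, with log2 fold changes of −1.30, −1.63 and 0.87 (adjusted p = 7.83e-11, 7.01e-13 and 4.30e-08). Its part in the Bad counts was not tested.

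Set by comparison, most members passed the test in each, as did most genes. Between activated naive and naive libraries 7 members were higher and 3 lower, while 81.9% of all tested genes were called, 41.3% higher and 40.5% lower. The 3 lower members were Mcl1, Bak1 and Bad. Between TH1 effector and naive libraries 7 members were higher and 1 lower, Mcl1, with 84.9% of all genes called, 44.6% higher and 40.3% lower. Between reactivated TH1 and TH1 effector libraries 3 members were higher and 5 lower, with 79.7% of all genes called, 39.9% higher and 39.8% lower. Bcl2l1, Bcl2l11 and Bid were higher there, and Bcl2, Bax, Bbc3, Pmaip1 and Bad lower. The median log2 fold change of the 10 members was 1.33 on stimulation of naive cells, 1.11 in TH1 effector against naive cells and −0.13 on reactivation, against 0.0046, 0.06 and −0.0023 over all tested genes. Shares of members called in either direction were thus close to those of all genes, and naive and TH1 effector libraries each enter more than 1 of these comparisons.

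**Figure D2:**
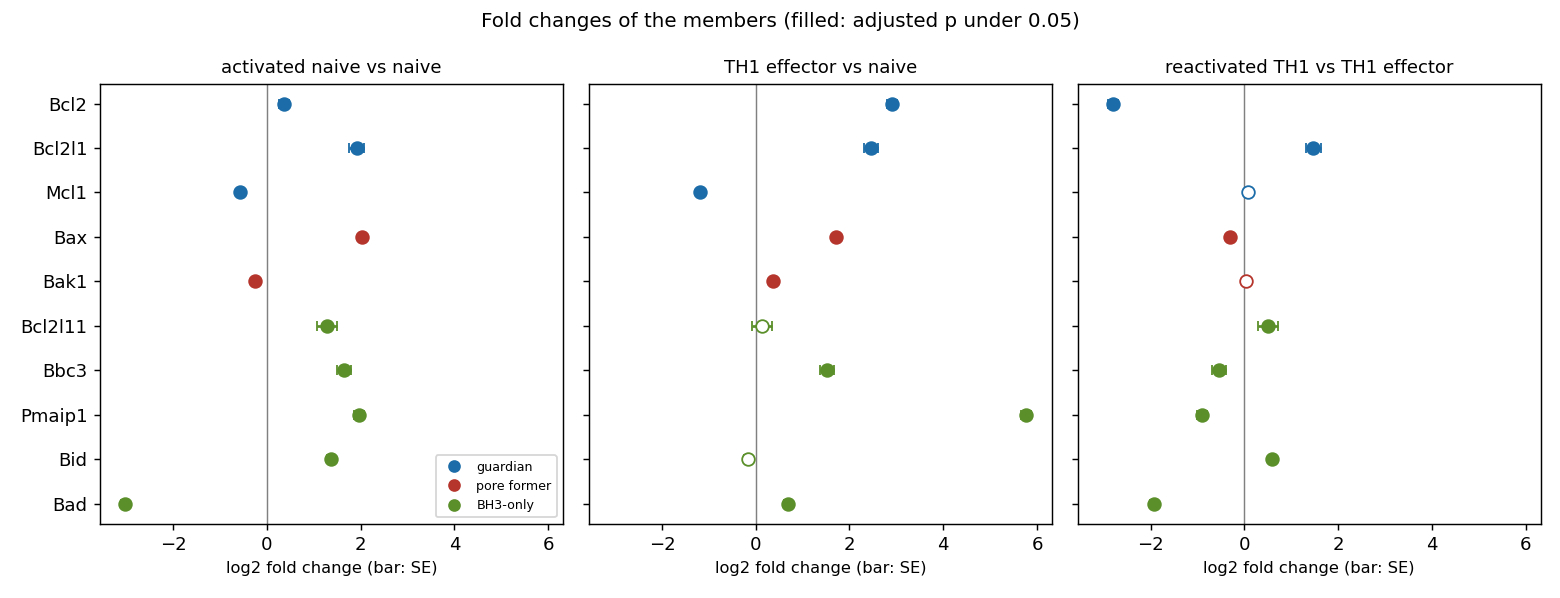
Log2 fold change of each gene (horizontal axis; bars are SE) in 3 comparisons, coloured by role; filled points passed an adjusted p of 0.05. Pmaip1 in TH1 effector against naive cells (5.76) and Bad on stimulation of naive cells (−3.02) lie farthest from 0.

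Reactivated TH1 cells also differed from activated naive cells, the other stimulated state, whose stimulus the labels do not name. There 4 members were higher and 6 lower, with 79.8% of all genes called, 43.4% higher and 36.4% lower. Pmaip1 was 7.46-fold higher (log2 2.90, SE 0.11, adjusted p = 3.39e-19), Bcl2l1 4.04-fold (log2 2.01, SE 0.16, adjusted p = 2.83e-11), Bad 3.45-fold (log2 1.79, SE 0.09, adjusted p = 1.55e-13) and Bak1 1.57-fold (log2 0.65, SE 0.06, adjusted p = 1.30e-09). Bid was 1.92-fold lower (log2 −0.94, SE 0.08, adjusted p = 8.07e-11), and Mcl1 and Bax had log2 fold changes of −0.52 and −0.63 (adjusted p = 2.61e-10 and 7.31e-10). Among the lower genes, calls that did not hold in each run were those of Bbc3 (log2 −0.65, adjusted p = 0.000138, and 0.0573 in the second run), Bcl2l11 (−0.64, adjusted p = 0.00702, and 0.120 in the first) and Bcl2 (−0.25, adjusted p = 0.0170, and 0.191 in the second). The Bcl2 call was also lost with no run term (adjusted p = 0.0649) and without reactivated TH1 replicate 1 or 2 (0.0556 and 0.0516).

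In the remaining pairs Pmaip1 had the largest folds. In reactivated TH1 against naive libraries 7 members were higher and 2 lower (Mcl1 and Bad), with 87.6% of all genes called, 47.9% higher and 39.8% lower. Pmaip1 was 28.9-fold higher (log2 4.86, SE 0.11, adjusted p = 6.44e-23), while Bad was 2.36-fold lower (log2 −1.24, SE 0.09, adjusted p = 4.73e-12). Bcl2l11 was 1.56-fold higher (log2 0.64, SE 0.21, adjusted p = 0.00649), but not past the threshold in the second run alone (adjusted p = 0.112). In TH1 effector against activated naive libraries 5 members were higher and 4 lower, with 86.9% of all genes called, 45.6% higher and 41.2% lower. Pmaip1 was 13.97-fold higher (log2 3.80, SE 0.11, adjusted p = 1.24e-21), Bad 13.2-fold higher (log2 3.72, SE 0.09, adjusted p = 1.19e-20) and Bcl2 5.84-fold higher (log2 2.55, SE 0.10, adjusted p = 4.17e-18). Bid was 2.90-fold lower (log2 −1.54, SE 0.08, adjusted p = 2.55e-15) and Bcl2l11 2.22-fold lower (log2 −1.15, SE 0.21, adjusted p = 2.57e-05).

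Whether TH1 cells and naive cells answered stimulation alike was tested as the difference between the 2 responses. TH1 cells had met macrophages that carried antigen, and naive cells a stimulus that the labels do not name. Effects of the kind of cell and of the stimulus therefore cannot be told apart. The responses differed for 9 members, 3 with a higher and 6 with a lower value in TH1 cells, against 68.0% of all genes, 34.3% higher and 33.7% lower. Bcl2, Bax, Bbc3 and Pmaip1 moved in opposite directions, since they fell in TH1 cells and rose in naive cells. The rise of Bcl2 was not called in the first run alone (log2 0.17, edgeR adjusted p = 0.135) or with library size only (0.20, 0.0703). The fall of Bbc3 was not called in the second run alone (−0.38, 0.0970). Differences between the responses were −3.17 for Bcl2 (SE 0.14, adjusted p = 3.41e-16), −2.86 for Pmaip1 (SE 0.15, adjusted p = 5.12e-15), −2.34 for Bax (SE 0.09, adjusted p = 1.97e-17) and −2.17 for Bbc3 (SE 0.22, adjusted p = 6.06e-10) on the log2 scale. Bad fell less in TH1 cells, by a difference of 1.10 (SE 0.12, adjusted p = 2.88e-07), and Bid rose less, by −0.77 (SE 0.12, adjusted p = 2.00e-06). Mcl1 differed by 0.67 (SE 0.06, adjusted p = 2.96e-09), falling in naive cells alone. Bak1 differed by 0.29 (SE 0.09, adjusted p = 0.00780), but by 0.19 in the first run alone (adjusted p = 0.215). Bcl2l11 differed by −0.77 (SE 0.30, adjusted p = 0.0235), with −0.07 in the first run (adjusted p = 0.861) and −1.49 in the second (0.00181), and the call was lost without activated naive replicate 3 (0.0577).

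Bcl2l1 rose in both responses, and their difference did not pass the threshold (log2 −0.45, SE 0.22, adjusted p = 0.0659). It passed in the second run alone (−0.58, adjusted p = 0.00553), with DESeq2's Wald test (−0.50, adjusted p = 0.0286), with DESeq2 size factors in edgeR (0.0428), and without naive replicate 2 (−0.63, adjusted p = 0.00223), activated naive replicate 1 (0.0136) or TH1 effector replicate 3 (0.0411). A like rise in both kinds of cell is therefore not shown.

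**Figure D3:**
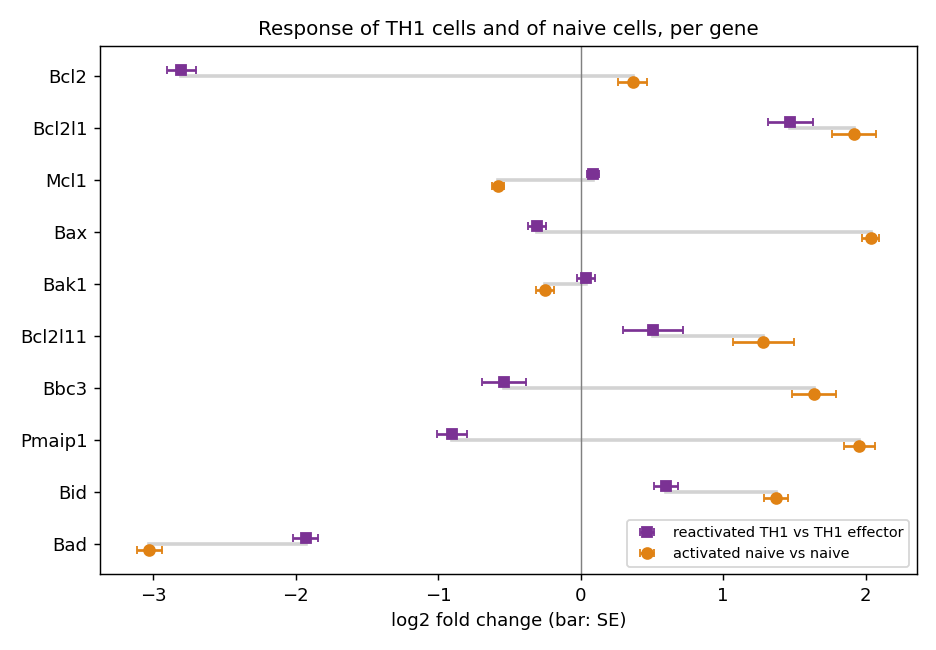
Log2 fold change on stimulation (horizontal axis; bars are SE) for each gene in TH1 cells (squares, reactivated TH1 vs TH1 effector) and naive cells (circles, activated naive vs naive). Bcl2, Bax, Bbc3 and Pmaip1 lie left of 0 in TH1 cells and right of 0 in naive cells.

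**Figure D4:**
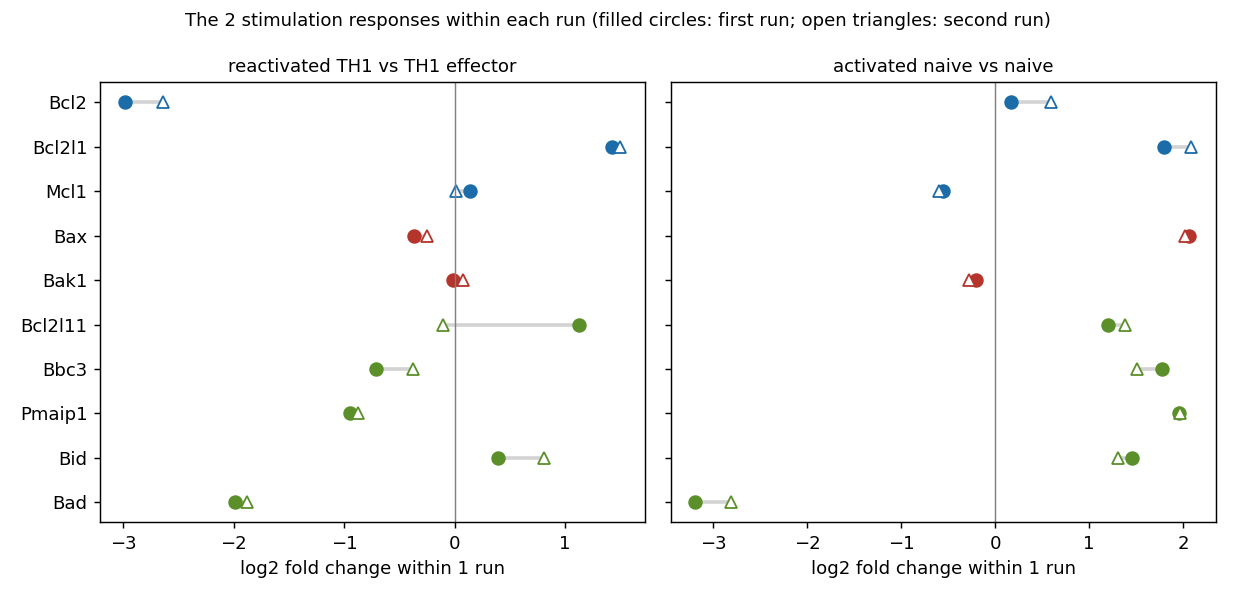
Log2 fold change of each gene in the first run alone (filled circles) and the second run alone (open triangles) for reactivated TH1 vs TH1 effector (left) and activated naive vs naive (right). The runs differ most for Bcl2l11 on reactivation, at 1.13 and −0.11.

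Guardian and death genes were also set against each other within libraries, as differences of log2 CPM that are compared between groups and not tested. Bcl2l1 minus Bcl2 had a median of 0.99 in reactivated TH1 libraries (0.54 to 1.59), against −3.32 in TH1 effector libraries (−3.61 to −2.62). It was −1.42 in activated naive libraries (−1.83 to −0.40), against −2.91 in naive libraries (−3.30 to −1.81). The 6 reactivated TH1 libraries lay above the 18 others. These differences are not corrected for the length of the genes, so where they cross 0 has no meaning. Pmaip1 minus Mcl1, a BH3-only gene and its main partner, was −2.69 in reactivated TH1 libraries (−3.00 to −2.40), against −1.68 in TH1 effector libraries (−1.99 to −1.55). In naive cells it was −6.22 after stimulation (−6.42 to −5.62), against −8.63 before (−9.13 to −8.14), and no group overlapped another. Bcl2l11 minus Bcl2 had medians of −0.09 in reactivated TH1 and −3.41 in TH1 effector libraries, and of 0.26 in activated naive and −0.59 in naive libraries. Bcl2l11 minus Mcl1 had medians of −1.34 in reactivated TH1 and −1.79 in TH1 effector libraries, and of −1.29 in activated naive and −3.06 in naive libraries.

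**Figure D5:**
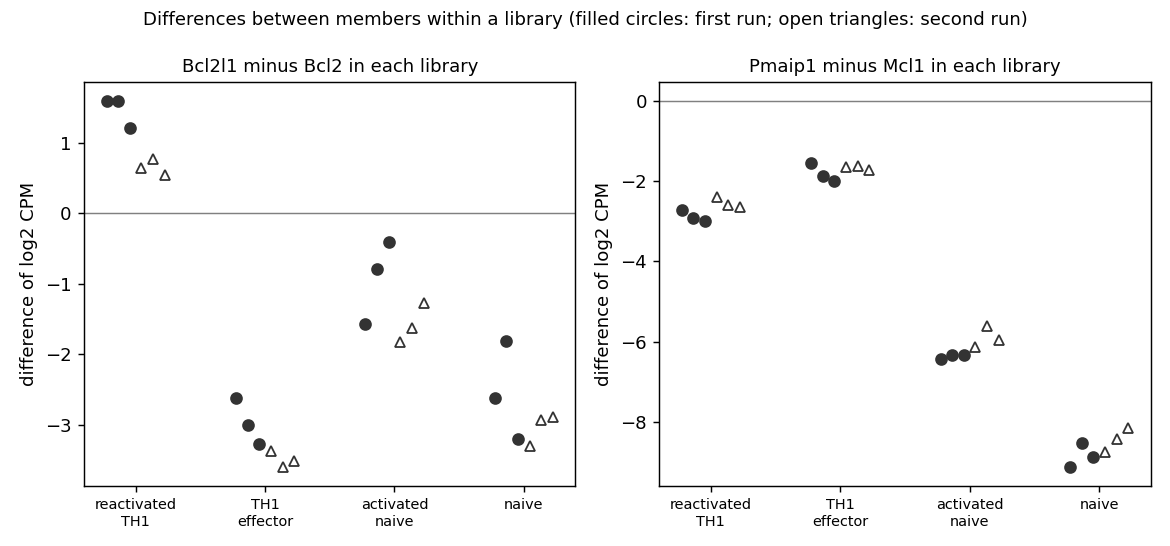
Difference of log2 CPM between Bcl2l1 and Bcl2 (left) and between Pmaip1 and Mcl1 (right) in each library, by group; filled circles are the first run and open triangles the second. On the left the 6 reactivated TH1 libraries lie above the 18 others, and the 4 groups are apart on the right.

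Levels of different genes can be compared only per length, here mean CPM per kilobase of merged GENCODE M21 exons, a scale that takes all exons as used. On that scale Mcl1 led in naive cells at 215 CPM per kilobase, ahead of Bax at 29.25 and Bak1 at 20.75. In activated naive cells Mcl1 (143) and Bax (120) led, with Bcl2l11 next at 26.3. In TH1 effector cells Bcl2 (107), Bax (95.5) and Mcl1 (94.6) were close together, and Pmaip1 followed at 35.9. In reactivated TH1 cells Mcl1 (99.95), Bax (77.2) and Bcl2l1 (63.4) led, and Bcl2 was 7th at 15.5. The lowest member was Bad in reactivated TH1 (1.56) and activated naive cells (0.453), Bid in TH1 effector cells (4.88) and Pmaip1 in naive cells (0.667).

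Bax and Bbc3 had the most alike courses of any of the 45 pairs of members, with a root mean square difference of 0.27 between their centred log2 CPM over the 24 libraries. The next pair was Bcl2l11 with Bid, at 0.48. Among 8773 genes with a mean of at least 10 CPM, Bax was the 2nd nearest to Bbc3, after Agpat2 (0.24). The 3 genes nearest to Bax were St13 (0.15), Sypl (0.24) and Acsl4 (0.25), so Bbc3 was not among them. Because Bax and Bbc3 were alike, and so after their values were seen, the 250 bases before the annotated start are printed for both. They come from RefSeq's table (GRCm38.p6), 5′ to 3′ on the gene's strand, with the E-box CACGTG in capitals. The Bax window is chr7:45466899-45467148 on the minus strand, and the Bbc3 window chr7:16310181-16310430 on the plus strand, which is 1 of 3 starts listed for Bbc3. Only windows that hold the E-box were printed, so its presence in both was set by that choice.
Bax: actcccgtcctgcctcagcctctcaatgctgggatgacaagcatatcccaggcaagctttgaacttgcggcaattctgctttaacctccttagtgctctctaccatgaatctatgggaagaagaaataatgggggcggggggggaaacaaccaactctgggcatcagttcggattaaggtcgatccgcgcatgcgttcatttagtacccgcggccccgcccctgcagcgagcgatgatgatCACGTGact
Bbc3: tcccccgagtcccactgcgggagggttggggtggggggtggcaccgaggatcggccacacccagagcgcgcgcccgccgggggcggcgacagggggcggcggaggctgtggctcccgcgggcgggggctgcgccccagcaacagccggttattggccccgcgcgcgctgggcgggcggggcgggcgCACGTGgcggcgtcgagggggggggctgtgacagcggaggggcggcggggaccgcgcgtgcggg
The 15 windows searched, each the 250 bases before a start, belong to 9 members, all but Pmaip1. The E-box was found in these 2 of the 15 and in 6.02% of 32851 such windows of all genes, searched on both strands. The GC box GGGCGG was found in 10 of the 15 (32.7% of all), the NF-kB pattern in 13 (45.8%), CCAAT in 4 (33.8%) and the FOXO pattern TGTTTAC in 2 (3.17%). For p53, the pattern searched by name covers only part of a p53 element, and a full element was not searched for. This partial pattern was found in 1 window, that of Bax (7.13%). AP-1 (TGACTCA), CRE (TGACGTCA), STAT (TTCNNNGAA) and EGR (GCGTGGGCG) patterns were in none of the 15, against 4.46%, 1.55%, 7.02% and 0.536% of all windows. These are matches of letters, and several windows belong to the same gene.

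For the members with the widest range of group means, the 3 nearest genes were named by the same distance. Pmaip1 was nearest to Pask (0.41), Mlkl (0.48) and Foxm1 (0.52), with a median of 2.38 over all genes compared. Bcl2l1 was nearest to Ppfibp1 (0.39), Rsph3a (0.41) and Fbxw8 (0.41; median 1.54). Bad was nearest to H2afv (0.21), Map3k12 (0.21) and Gmfg (0.25; median 1.54), and Bcl2 to Itih5 (0.38), Pgm2 (0.44) and Vegfb (0.44; median 1.40). Pgm2, as an example, averaged 35.5 CPM in reactivated TH1 and 219 CPM in TH1 effector libraries, and 26.5 CPM in activated naive and 34.3 CPM in naive libraries.

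Of 17 other BCL2 family genes listed, 11 were tested. Changes given for genes of this and the following lists are log2 fold changes. On stimulation of naive cells 2 rose and 5 fell (median log2 fold change −0.61, against 0.0046 over all genes), in TH1 effector against naive cells 8 were higher and 2 lower (median 1.24, against 0.06), and on reactivation 2 rose and 6 fell (median −0.55, against −0.0023). The calls came to 7, 10 and 8 of the 11, against 81.9%, 84.9% and 79.7% of all tested genes, which is also the background of the lists that follow. Bcl2a1b, a guardian gene of the A1 cluster, averaged 127 ± 16.6 CPM in reactivated TH1 libraries, against 5.72 ± 0.649 CPM in TH1 effector libraries, and 147 ± 14.3 CPM in activated naive libraries, against 2.44 ± 0.432 CPM in naive ones (SD, n = 6 each). Its log2 fold changes were 4.47 on reactivation and 5.92 on stimulation of naive cells (edgeR adjusted p = 2.73e-21 and 6.94e-24), and those of Bcl2a1d 5.16 and 6.96 (adjusted p = 4.74e-16 and 4.76e-18). The A1 genes are near-identical copies, so how reads were divided among them is uncertain. Bmf, a BH3-only gene, fell by 3.43 on reactivation and fell by 2.96 on stimulation of naive cells (adjusted p = 3.48e-09 and 9.53e-09). Bnip3, a mitochondrial relative known for hypoxia and mitophagy, averaged 201 ± 62.1 CPM in TH1 effector cells and fell by 4.34 on reactivation (adjusted p = 4.15e-13). Bcl2l2 (BCL-W), a guardian, was 3.02 higher in TH1 effector than in naive cells on the log2 scale (adjusted p = 5.42e-19).

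The list of the apoptosome, caspases and mitochondrial release held 16 tested genes, Vdac1, Vdac2 and Vdac3 among them. Of these 6 rose and 8 fell on stimulation of naive cells (median log2 −0.14). In TH1 effector against naive cells 9 were higher and 6 lower (median 0.43), and on reactivation 7 rose and 7 fell (median −0.0070). Casp9, the initiator that the apoptosome activates, averaged 5.04 ± 0.943 CPM in reactivated TH1 and 15.4 ± 1.33 CPM in TH1 effector libraries, and 3.23 ± 0.379 CPM in activated naive and 26.2 ± 1.39 CPM in naive libraries. It fell by 1.62 on reactivation and fell by 3.02 on stimulation of naive cells (adjusted p = 1.54e-13 and 4.27e-19). Cycs, cytochrome c, rose in both (1.12 and 2.15, adjusted p = 1.59e-12 and 2.25e-18), although reads from its pseudogenes may be counted with it.

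Among 6 tested IAP genes, which encode caspase and ubiquitin-linked inhibitors of death, 1 rose and 4 fell on stimulation of naive cells (median log2 −0.59), 2 were higher and 3 lower in TH1 effector than in naive cells (median −0.27), and none rose and 4 fell on reactivation (median −0.39). Birc3 rose by 0.72 in stimulated naive cells (adjusted p = 7.01e-10), where Birc2 fell by 0.99 (1.51e-10). Birc5 (survivin), which also acts in cell division, was 6.96 higher in TH1 effector than in naive cells (adjusted p = 9.96e-20). Birc6, a very large IAP, fell by 0.70 on reactivation (adjusted p = 1.11e-09).

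The death receptor arm, which reaches mitochondria through Bid, held 11 tested genes. Of these 4 rose and 7 fell on stimulation of naive cells (median log2 −0.50), 4 were higher and 4 lower in TH1 effector than in naive cells (median 0.03), and 5 rose and 4 fell on reactivation (median 0.14). Casp8, whose product cuts Bid, fell by 1.27 on reactivation and fell by 1.55 on stimulation of naive cells (adjusted p = 4.77e-15 and 3.94e-17). Cflar, which encodes the caspase 8 inhibitor c-FLIP, rose by 1.32 on reactivation (adjusted p = 4.13e-17), to 263 ± 25.9 CPM in reactivated TH1 libraries, against 105 ± 10.1 CPM in TH1 effector libraries. Tnf rose by 3.31 on reactivation and 3.37 on stimulation of naive cells (adjusted p = 1.01e-12 and 4.64e-13), and Fasl rose by 1.26 in stimulated naive cells (4.82e-06).

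The list of upstream regulators of members held 17 genes, in which Cdkn1a was counted as a p53 target. On stimulation of naive cells 11 were higher and 6 lower (median log2 1.23). In TH1 effector against naive cells 7 were higher and 8 lower (median −0.12), and on reactivation 8 were higher and 7 lower (median 0.23). Foxo1, known as an activator of Bcl2l11 and Bbc3 in other settings, averaged 76.8 ± 14.5 CPM in reactivated TH1 and 137 ± 24.9 CPM in TH1 effector libraries, and 245 ± 65.2 CPM in activated naive and 413 ± 16.1 CPM in naive libraries, and was lower in reactivated TH1 than in TH1 effector cells (log2 −0.84, adjusted p = 4.13e-06). Rel, an NF-kB subunit known for Bcl2l1 and A1 induction, rose by 3.20 on reactivation (adjusted p = 8.37e-14), and Stat5a, which carries interleukin 2 signals, by 2.26 (6.95e-11). Myc, which is known to sensitise cells to death, rose by 3.98 in stimulated naive cells (adjusted p = 2.45e-20), and its response in TH1 cells differed by −3.61 (3.43e-16). Cdkn1a, a p53 target, had at most 6 counts in a naive library and averaged 111 ± 30.8 CPM in activated naive libraries.

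Genes for kinases, chaperones and turnover of BCL2 proteins, 17 tested of 18, gave 9 higher and 3 lower on stimulation of naive cells (median log2 0.14), 6 higher and 4 lower in TH1 effector against naive cells (median −0.02), and 7 higher and 4 lower on reactivation (median 0.14). Pim2, a kinase known to phosphorylate Bad, fell by 2.96 on reactivation and fell by 2.34 on stimulation of naive cells (adjusted p = 2.15e-16 and 1.39e-14), while its relative Pim3 rose by 2.38 and 2.23 (3.59e-16 and 4.93e-16). Huwe1, a ligase known to mark Mcl1 for destruction, was lower in TH1 effector than in naive cells (log2 −0.68, adjusted p = 3.68e-12).

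Of 9 survival cytokine receptor genes 5 rose and 4 fell on stimulation of naive cells (median log2 0.74), 3 were higher and 5 lower in TH1 effector than in naive cells (median −0.24), and 4 rose and 4 fell on reactivation (median −0.19). Il7r, through which interleukin 7 is known to maintain Bcl2, averaged 59.3 ± 11.8 CPM in reactivated TH1 and 241.8 ± 34.4 CPM in TH1 effector libraries, and 1.67 ± 0.607 CPM in activated naive and 420 ± 87.9 CPM in naive libraries. It fell by 2.02 on reactivation and fell by 7.99 on stimulation of naive cells (adjusted p = 3.00e-13 and 2.98e-22). Il2ra and Il2rb, chains of the interleukin 2 receptor, were 7.44 and 7.35 higher in TH1 effector than in naive cells (adjusted p = 2.12e-28 and 3.54e-18). Genes outside the 10 members were not checked for overlapping neighbours.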

How the data were processed

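Bulk RNA was sequenced from 24 libraries of mouse CD4 T cells, 6 in each of 4 groups taken from the labels. Each library has a table that the authors deposited, with read counts per gene symbol as whole numbers, not normalised. The submitters' processing notes name STAR, HTSeq, DESeq2 and the build mm10, and per the labels' protocols the library kit keeps strand. What each tool did, its version, the annotation and whether counting used strand were not given in the sources used here. The 5 lines of reads not given to a gene stayed out, of which reads without a feature came to 13.2% to 24.5% of all reads in a table.

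In R 4.3.3, counts were filtered with filterByExpr (minimum count 10), scaled with TMM factors and fitted in 1 robust quasi-likelihood model (edgeR 4.0.16, limma 3.58.1, statmod 1.5.0) with group and run as terms, the run being read from the flow cell in each file's name. Adjusted p-values are Benjamini-Hochberg over 12584 genes from glmQLFTest, with a threshold of 0.05, unless DESeq2 (1.42.0) is named. The SE is that of the difference of group means of log2 CPM (prior count 2) within group and run. The procedure was tested on simulated counts for activated naive against naive cells, with far fewer changed genes than were called here. Such a test does not show how scaling behaves when most genes change. The members and gene lists were chosen with earlier results of these data known. Named genes are the 10 members and, per list and comparison, up to 2 largest rises and 2 largest falls past the threshold whose higher group mean reached 10 CPM; some of these are left out for brevity or are not reported here. Lists were described by counts and medians, with no list test. The lists are other BCL2 family genes, apoptosome, caspase and mitochondrial release genes, IAP genes and the death receptor arm. The others are upstream regulators, kinases, chaperones and turnover, and survival cytokine receptors. Alternatives were other scalings, filters, DESeq2, single runs, no run term, only the groups compared, a replicate block and leaving out each library.

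Libraries of a group differed by more than sampling noise in every pair (chi-square of their counts per degree of freedom at least 9.21). Replicate numbers recur across groups. Deviations from group means correlated in all 36 pairs of libraries with the same number (Pearson r across genes 0.11 to 0.43, median 0.27), and had medians of −0.07 and −0.13 for pairs with other numbers of the same run and of the other run. With run removed 20 of the 36 were above 0.1. Above 0.1 were also 40 of the 108 pairs of the other run, but 0 of the 72 with other numbers of the same run. Removing run makes deviations sum to 0 within each run, which lowers r for pairs of the same run. The counts with run removed therefore do not decide the pairing. Without run removed, 14 of the 108 and 22 of the 72 were above 0.1. By the first measure the numbers pair the libraries, though the labels do not say what the M and number in each title mark.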

Additional observations from a re-analysis of the deposited data

Results flagged for a closer look

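In 2 of 40 sets of 6 libraries, which is the number that chance gives at 1 in 20, a library stood far from the others. Bcl2l1 in naive replicate 2 was 33.4 CPM, against 20.3 CPM in the nearest naive library, a gap of 0.687 of the group's range. Bbc3 in reactivated TH1 replicate 2 was 9.30 CPM, against 11.5 CPM in the nearest (0.694 of the range).

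The responses to stimulation differed between TH1 and naive cells for 9 of 10 members (edgeR interaction contrast, 68.0% of all genes passing). The stimuli may have differed too, and cannot be told apart from the kind of cell. Differences of log2 fold change, TH1 minus naive, were −3.17 for Bcl2, −2.86 for Pmaip1, −2.34 for Bax, −2.17 for Bbc3, −0.77 for Bcl2l11, −0.77 for Bid, 0.29 for Bak1, 0.67 for Mcl1 and 1.10 for Bad. Starting levels of TH1 effector and naive cells differed for 7 of these 9, against 84.9% of all tested genes. Bcl2l11 and Bid were the exceptions at this threshold. The part of starting levels in the differences was not tested.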

How the results depend on the processing

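Of 1720 values of single members under other settings, 1681 kept their side of the threshold, 22 lost the call, 16 gained it and 1 reversed. The reversed value was that of Bcl2l11 on reactivation in the second run alone (−0.11), and the cause was not tested. The 1681 include changes of sign that passed in neither fit, such as Bcl2l11 in TH1 effector against naive cells (0.13, but −0.29 in the first run alone). Each changed call stands beside its gene above. Counts of members called ran from 6 to 9 on reactivation (8 in the reported fit) and from 7 to 10 for the difference between responses (9). Library size alone moved the median of all genes by −0.14 on stimulation of naive cells, −0.12 on reactivation, 0.14 in TH1 effector against activated naive and −0.15 in reactivated TH1 against naive libraries, and upper-quartile factors by −0.13, 0.13 and −0.11 in the last 3. With the replicate block 10336, 10746 and 10111 genes were called on stimulation of naive cells, in TH1 effector against naive cells and on reactivation (10303, 10686 and 10032 without it), and the block changed 0 of 70 member calls. Depth limits Bad in activated naive libraries (23 to 38 counts) and Pmaip1 in naive libraries (32 to 54 counts).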
